A study of Rattus norvegicus with 6 samples.

Results

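The 10 genes described here are a core set that nerve cells switch on when they fire: the transcription factor genes Egr1, Egr2, Egr3 and Egr4, the orphan nuclear receptor genes Nr4a1, Nr4a2 and Nr4a3, the transcription factor gene Npas4, the synaptic gene Arc and the kinase gene Plk2. They were chosen by name, and all 10 were found among the 18166 genes measured, each on 1 probe set with a single gene symbol. Each of 6 Affymetrix arrays, read in a single colour, held RNA of 1 culture of primary rat hippocampal neurons, dissected at embryonic day 18 and grown with 10 µM 5-fluorodeoxyuridine, which holds back dividing cells. At 4 days in vitro the cultures received adeno-associated virus, and they were lysed for RNA at 14 days in vitro. In 3 arrays the virus carried an Ncoa3 shRNA, a hairpin RNA that silences the nuclear receptor coactivator gene Ncoa3, and in the other 3 it carried a control shRNA. Each of 3 numbered experiments gave 1 array of each kind. The design compares the activity genes between arrays with Ncoa3 shRNA and arrays with control shRNA, and its numbering shows how they differ between the numbered experiments. The labels name neither the promoter that drives the hairpin nor the share of cells infected. The design text speaks of 3 biological replicates.

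Calcium that enters a firing neuron activates kinases, which act on transcription factors already bound to DNA, among them CREB at cyclic AMP response elements (CRE) and SRF at serum response elements. Genes with such sites are copied within minutes without new protein synthesis, and they are called immediate-early genes. In the hippocampus Arc, Egr1 and Npas4 are widely used as marks of recently active neurons. The protein of Plk2 belongs to the slower arm that tones synapses down after long activity.

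All values below are log2 signals, and differences are Ncoa3 shRNA minus control shRNA. The median signal over all probe sets of an array lay between 6.81 and 6.97 with Ncoa3 shRNA and between 7.08 and 7.25 with control shRNA, and the median gene was lower by 0.25 with Ncoa3 shRNA (deposited difference -0.25). Arrays of the same group had identical values in 23.7% to 38.1% of the 36685 probe sets, while pairs from different groups shared at most 2 probe sets, so a processing step run on each group by itself cannot be told apart from the shRNA. Changes between groups are therefore given after all 6 arrays were set to 1 common distribution (quantile normalization), beside the deposited values. Ncoa3 itself (probe set 17769041) read 7.43, 7.43 and 7.39 in experiments 1, 2 and 3 with Ncoa3 shRNA, against 8.79, 8.88 and 8.37 with control shRNA. Its change after quantile normalization was -0.97 ± 0.142 (SE, 3 arrays in each group; adjusted p by limma 0.00747, and 0.134 without experiment 1 or 0.123 without experiment 2). Markers fixed for neurons (6 of 6 measured, among them Map2, Rbfox3 and Syp), excitatory neurons (4 of 4) and GABAergic neurons (3 of 3) were all above the level of smell receptor genes defined below, and Mki67, Top2a and Ccna2, marks of dividing cells, were all at it. In such bulk samples, fewer cells of a type and less RNA per cell cannot be told apart.

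All 10 activity genes gave signal well above genes that these cells are not known to use. The 95th percentile of 227 genes whose symbols start with Olr or Vom, receptors of smell and pheromones, was 6.37 with Ncoa3 shRNA and 6.76 with control shRNA. The lowest value of any activity gene on any array was 8.23, read for Egr2.

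**Figure D1:**
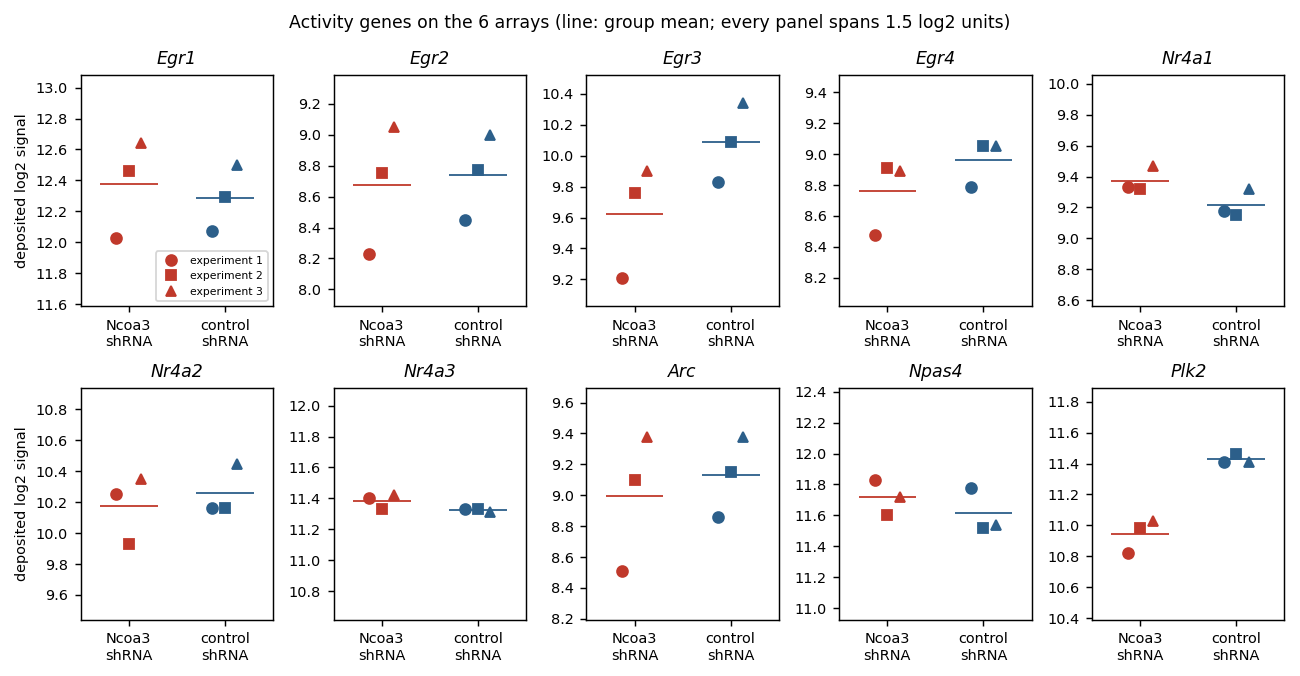
Deposited log2 signal of each activity gene on the 6 arrays, with Ncoa3 shRNA left and control shRNA right in each panel, 1 symbol per experiment and a line at the group mean. The groups of Plk2 and Nr4a1 do not overlap in these deposited values. The share of all genes without overlap was counted only after quantile normalization, at 19.0% lower and 21.5% higher with Ncoa3 shRNA. Egr1, Egr2, Egr3 and Arc have experiment 1 lowest and experiment 3 highest in both groups, as 2.08% of all genes do.

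Promoter sequences are shown for the 5 genes that passed a test below, Npas4 only with the experiment in the model, and have a window in RefSeq (build GRCr8), since activity is known to act through elements in such windows. Each window runs from 250 bases before to 50 bases after the gene's start, 5′ to 3′ on the gene's strand. The capitals mark the serum response element by its consensus (the CArG box) and the core of the CRE, TGACG on either strand (CGTCA where it lies on the opposite strand). Egr1 lies at chr18:26736828-26737127 on the plus strand, Egr2 at chr20:21054392-21054691 on the minus strand, Nr4a1 at chr7:134259888-134260187 on the plus strand, Npas4 at chr1:211716053-211716352 on the minus strand and Plk2 at chr2:43702286-43702585 on the plus strand.
Egr1: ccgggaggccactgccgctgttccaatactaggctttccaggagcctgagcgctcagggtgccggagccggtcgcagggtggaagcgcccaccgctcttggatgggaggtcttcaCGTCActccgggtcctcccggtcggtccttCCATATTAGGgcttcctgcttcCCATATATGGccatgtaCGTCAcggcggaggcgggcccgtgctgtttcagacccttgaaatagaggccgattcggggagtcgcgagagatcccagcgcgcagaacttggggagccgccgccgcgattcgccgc
Egr2: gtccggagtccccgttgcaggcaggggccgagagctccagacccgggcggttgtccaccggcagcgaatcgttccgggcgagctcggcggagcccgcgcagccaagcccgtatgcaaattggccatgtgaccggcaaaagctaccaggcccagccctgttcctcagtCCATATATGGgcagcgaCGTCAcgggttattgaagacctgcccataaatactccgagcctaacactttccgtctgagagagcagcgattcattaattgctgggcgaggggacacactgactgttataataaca
Nr4a1: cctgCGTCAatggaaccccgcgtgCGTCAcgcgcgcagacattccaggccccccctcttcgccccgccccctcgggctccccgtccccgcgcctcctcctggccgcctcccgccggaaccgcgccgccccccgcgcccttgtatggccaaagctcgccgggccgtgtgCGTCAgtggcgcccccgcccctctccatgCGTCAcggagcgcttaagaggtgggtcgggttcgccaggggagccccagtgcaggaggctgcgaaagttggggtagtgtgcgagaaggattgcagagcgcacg
Npas4: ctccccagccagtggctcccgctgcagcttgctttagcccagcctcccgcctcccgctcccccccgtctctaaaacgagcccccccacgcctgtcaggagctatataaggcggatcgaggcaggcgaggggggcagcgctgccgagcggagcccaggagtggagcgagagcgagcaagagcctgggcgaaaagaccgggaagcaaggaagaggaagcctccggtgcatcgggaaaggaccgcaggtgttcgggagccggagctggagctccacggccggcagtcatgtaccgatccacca
Plk2: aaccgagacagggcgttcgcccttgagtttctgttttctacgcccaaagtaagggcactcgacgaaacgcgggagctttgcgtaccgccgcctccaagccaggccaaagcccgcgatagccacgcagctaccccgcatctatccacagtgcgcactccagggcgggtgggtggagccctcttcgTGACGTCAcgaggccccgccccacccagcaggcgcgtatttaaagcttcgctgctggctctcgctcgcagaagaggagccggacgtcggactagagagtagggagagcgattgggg

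The Egr1 window held 2 CArG boxes, which start 105 and 83 bases before the gene's start, and 2 CRE cores. The Egr2 window held 1 CArG box, also 83 bases before the start, and 1 CRE core. The Nr4a1 window held 4 CRE cores and no CArG box, and 1 match to the site of EGR proteins, GCGNGGGCG, on the opposite strand. The Plk2 window held a full CRE, TGACGTCA, whose first base lies 66 bases before the start and which reads the same on both strands, so that it contains 2 overlapping cores. Among all 33469 windows there, 1.64% held a CArG box, 1.83% a full CRE, 21.2% a CRE core and 4.98% the EGR site, searched on both strands. The site of NR4A proteins, AAAGGTCA, was found in 1.43% of all windows and in 0 of the 7 windows of activity genes. Among those 7, Egr4 and Nr4a2 also held CRE cores, and the Npas4 window held none of the 5 motifs. A match describes these letters and not a bound site.

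Egr1, Egr2, Egr3 and Arc differed most between the experiments, and in the same way under both hairpins. Egr1 (probe set 17722348), which encodes a zinc-finger factor needed for lasting synaptic change, read 12.03, 12.46 and 12.64 in experiments 1, 2 and 3 with Ncoa3 shRNA, against 12.07, 12.29 and 12.50 with control shRNA. Egr2 (17758189), a zinc-finger factor of the same family, read 8.23, 8.75 and 9.05 with Ncoa3 shRNA, against 8.45, 8.77 and 9.00 with control shRNA. Experiment 1 was the lowest and experiment 3 the highest in both groups, and the values of the groups interleaved.

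Egr3 (17699889), which acts downstream of the first wave of immediate-early factors, had the same order. It read 9.21, 9.76 and 9.90 with Ncoa3 shRNA, against 9.83, 10.09 and 10.34 with control shRNA. Arc (17838120), whose protein drives the removal of AMPA-type glutamate receptors from synapses, read 8.51, 9.10 and 9.38 with Ncoa3 shRNA, against 8.86, 9.15 and 9.38 with control shRNA. In experiment 3 the Arc values of the groups were alike to 2 decimals, while in experiment 1 they were 0.35 apart. The order of experiments seen in these 4 genes, in both groups, was met by 2.08% of all genes, and it was looked for after their values were seen.

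Differences between experiments were tested with the shRNA group in the model, 2 arrays per experiment, after quantile normalization. Relative to experiment 1, experiment 3 was higher by 0.53 ± 0.0572 for Egr1, 0.74 ± 0.0884 for Egr2, 0.70 ± 0.0923 for Egr3 and 0.78 ± 0.110 for Arc (SE), which is 1.44-fold, 1.67-fold, 1.63-fold and 1.72-fold. Experiment 2 lay between, above experiment 1 by 0.31 for Egr1, 0.42 for Egr2, 0.40 for Egr3 and 0.45 for Arc. These 4 of the 10 genes passed limma's F test over the 3 experiments, each with an adjusted p of 0.0484, and 18.8% of all genes passed it as well. The calls lie close to the threshold of 0.05. With the deposited values 0 of the 10 passed, where 1.91% of all genes did, and 7 members had an unadjusted p under 0.05. The lowest adjusted p of a member by limma's F test was there 0.0726, for Nr4a1. Egr1, Egr2, Egr3 and Arc stood at 0.112, 0.114, 0.132 and 0.152. With each array centred on its median 6 of 10 passed, where 55.5% of all genes did. Without any 1 of the 6 arrays none of the 10 passed limma's test, with a lowest adjusted p of a member from 0.058 to 0.203 and 5 to 7 members at an unadjusted p under 0.05.

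**Figure D2:**
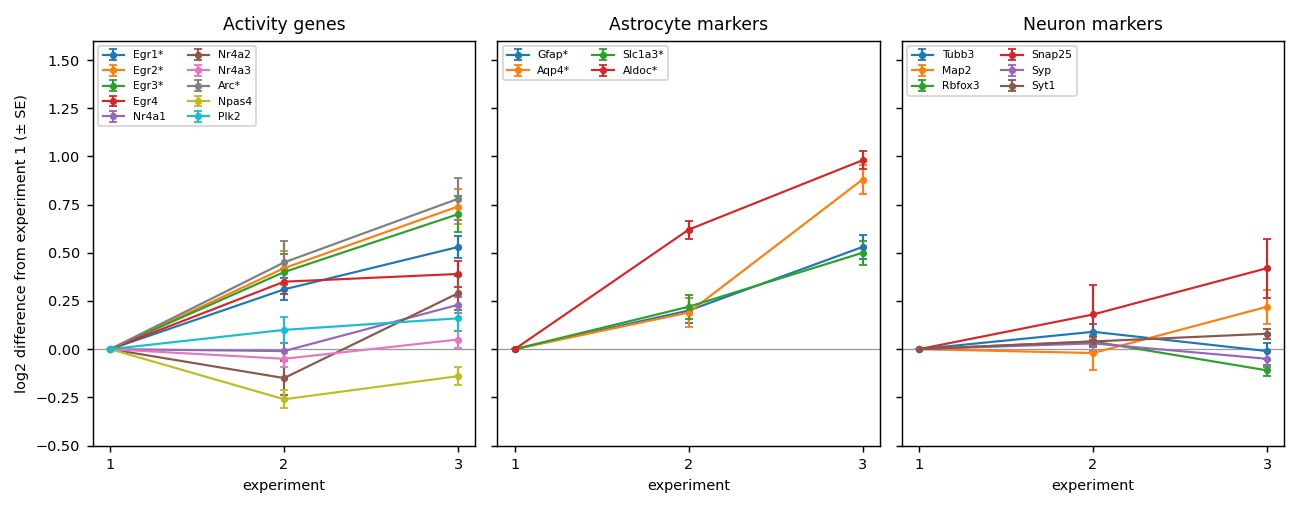
Log2 difference of experiments 2 and 3 from experiment 1 after quantile normalization, with the shRNA group in the model (points, ± SE, 2 arrays per experiment), for the activity genes, the astrocyte markers and the neuron markers; an asterisk marks genes past limma's F test. Egr1, Egr2, Egr3 and Arc reach 0.53 to 0.78 in experiment 3, the astrocyte markers 0.50 to 0.98, and no neuron marker passed.

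In the deposited values the other 6 activity genes did not have the order of experiments seen in Egr1, Egr2, Egr3 and Arc. Plk2 had it once quantile-normalized, at 10.89, 11.05 and 11.16 with Ncoa3 shRNA and 11.30, 11.34 and 11.36 with control shRNA. After quantile normalization, experiment 3 still lay above experiment 1 in 9 of the 10 genes. Egr4 (17792789), the remaining family member, read 8.48, 8.91 and 8.89 with Ncoa3 shRNA, against 8.79, 9.05 and 9.05 with control shRNA, so that experiment 1 was low and experiments 2 and 3 were alike within 0.04 ± 0.0658 (SE). Its adjusted p over experiments was 0.0511, just outside the threshold. Npas4 (17639411), a factor induced by calcium influx alone and known for setting inhibitory synapses, read 11.83, 11.60 and 11.72 with Ncoa3 shRNA, against 11.78, 11.52 and 11.54 with control shRNA. Here experiment 1 was the highest in both groups, opposite to Egr1 and Arc, with a difference of -0.14 ± 0.0456 (SE) between experiments 3 and 1 and an adjusted p of 0.0619. Nr4a1, Nr4a2, Nr4a3 and Plk2 had adjusted p-values by limma's F test of 0.0523, 0.074, 0.287 and 0.265. Their experiment 3 lay above experiment 1 by 0.23, 0.29, 0.05 and 0.16.

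Astrocyte markers moved with the same experiments. All 4 measured markers, Gfap, Aqp4, Slc1a3 and Aldoc, passed the F test and had experiment 1 lowest and experiment 3 highest in both groups, with experiment 3 above experiment 1 by 0.53, 0.88, 0.50 and 0.98. Their mean deposited signal was 9.89, 10.24 and 10.63 in experiments 1, 2 and 3 with Ncoa3 shRNA, against 10.14, 10.39 and 10.71 with control shRNA. Of the 6 neuron markers 0 passed limma's F test (1 at an unadjusted p under 0.05), with differences between experiments 3 and 1 from -0.11 to 0.42, and their mean was 12.59, 12.61 and 12.67 with Ncoa3 shRNA, against 12.68, 12.74 and 12.79 with control shRNA. Of the microglia markers Csf1r passed, and of the fibroblast markers Dcn and Col1a1 passed, at 0.34 and 0.28 (1 of 4 and 2 of 4 measured). In experiments 1 and 2 Csf1r lay below the level of smell receptor genes in both groups, so no size is given for its difference. Of 5 markers of the oligodendrocyte lineage Olig2 passed, at 0.33, and so did Pdgfra, while Olig1 stood at 0.53 without passing (adjusted p = 0.0942). Pdgfra and all 3 markers of dividing cells, which also passed, had a single deposited value within each group, so those calls come from the normalization alone. The part of RNA from these other cells in the values of Egr1, Egr2, Egr3 and Arc was not tested.

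Other fixed lists were set beside the 18.8% of all genes that passed between experiments, and none held a larger share. Of 23 measured early induced genes of signalling and secretion, 3 passed the F test: Ptgs2, which encodes the prostaglandin enzyme cyclooxygenase-2, at 1.42 between experiments 3 and 1, Nptx2, a secreted pentraxin that clusters AMPA receptors, at 1.05, and the MAP kinase phosphatase gene Dusp4 at 0.49. These 3 and Dusp5 and Vgf, neither past the test, had the order of experiments seen in Arc. Of 17 other immediate-early transcription factors 3 passed, all with experiment 3 below experiment 1: Atf3 at -0.57, Nfil3 at -0.50 and Ier2 at -0.22. Of 22 genes of upstream signalling 3 passed, Mef2c at 0.42, Grin2a at 0.37 and Cacna1d at -0.41, and of 20 partners and relatives Rxrb and Plk4 passed, Rxrb at -0.53. Plk4 had a single deposited value within each group, below the level of smell receptor genes, so its call comes from the normalization alone. Atf3, Nfil3 and Ier2 went the opposite way to Arc.

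Between the hairpins, Plk2 was lower with Ncoa3 shRNA in all 3 experiments. Plk2 (17735703), the Polo-like kinase that removes spine proteins during lasting activity, read 10.82, 10.98 and 11.03 with Ncoa3 shRNA, against 11.41, 11.46 and 11.41 with control shRNA. The highest value with Ncoa3 shRNA lay below the lowest with control shRNA. The deposited means were 10.94 ± 0.113 and 11.42 ± 0.0296 (SD, n = 3 each), and the control values of experiments 1 and 3 were identical. After quantile normalization Plk2 changed by -0.30 ± 0.077 (SE, 3 arrays in each group; adjusted p by limma 0.0436), or 1.23-fold lower, with -0.41, -0.29 and -0.20 in experiments 1, 2 and 3. It was the only one of the 10 genes to pass as lower, where 9.04% of all genes did, and the only one whose groups did not overlap with Ncoa3 shRNA lower, as in 19.0% of all genes. In the deposited values its difference was -0.48 (adjusted p = 0.00348), again 1 of 10, where 43.3% of all genes passed as lower. Fits that left out an array or an experiment were made without the experiment in the model. The call after quantile normalization was kept without Ncoa3 shRNA replicate 3 or without experiment 3. It was lost in the 7 other such fits (limma's adjusted p up to 0.304). With median centring the change of Plk2 was -0.20 (adjusted p = 0.349).

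Nr4a1 and Nr4a3 were higher relative to the other genes. Nr4a1 (17832476), which encodes the receptor Nur77, a regulator of spine density and metabolism, read 9.33, 9.32 and 9.47 with Ncoa3 shRNA, against 9.18, 9.15 and 9.32 with control shRNA. Every Ncoa3 shRNA value lay above every control value, if only just: the lowest of them and the highest control value were both 9.32 at 2 decimals. Its deposited means were 9.38 ± 0.0821 and 9.21 ± 0.0892 (SD, n = 3 each), a difference of 0.16 that was 0.15, 0.17 and 0.15 by experiment. After quantile normalization the change was 0.43 ± 0.105 (SE), or 1.34-fold higher (limma's adjusted p = 0.0383).

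Nr4a3 (17798725), which encodes the related receptor NOR1, barely varied. It read 11.40, 11.33 and 11.42 with Ncoa3 shRNA, against 11.33, 11.33 and 11.31 with control shRNA, and the groups overlapped in experiment 2, with the same control value in experiments 1 and 2. The deposited difference of 0.06 passed no test (adjusted p = 0.152). Relative to the common distribution, the change was 0.25 ± 0.0549 (SE), or 1.19-fold higher (limma's adjusted p = 0.0282), with 0.26, 0.19 and 0.29 by experiment. Nr4a3 thus passed relative to the common distribution and not in the deposited values.

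After quantile normalization these 2 of 10 genes passed as higher, where 10.5% of all genes did, and the groups of the same 2 did not overlap, as in 21.5% of all genes. In the deposited values 0 of 10 passed as higher (limma's adjusted p = 0.114 for Nr4a1; 0 also at an unadjusted p under 0.05), where 3.97% of all genes did, which were 722 higher against 7857 lower calls. The 9 fits that left out an array or an experiment again had no experiment in the model. Of these, the call of Nr4a1 was kept in 2 (limma's adjusted p 0.00371 to 0.283) and that of Nr4a3 in 4 (0.0328 to 0.312). Without control shRNA replicate 1, for example, the adjusted p was 0.136 for Nr4a1 and 0.107 for Nr4a3.

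**Figure D3:**
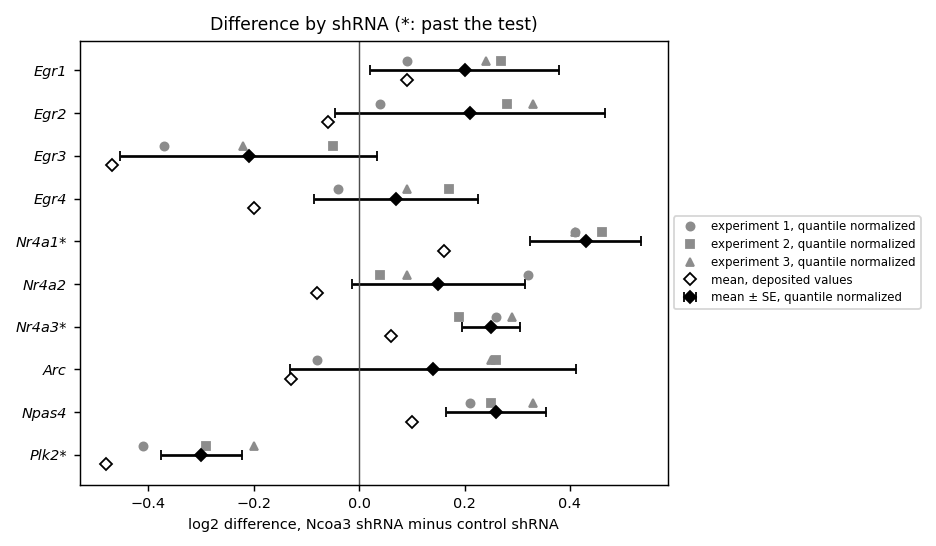
Log2 difference of each activity gene, Ncoa3 shRNA minus control shRNA: the mean ± SE after quantile normalization (filled diamonds), the same by experiment (grey symbols) and the mean of the deposited values (open diamonds). Nr4a1 at 0.43, Nr4a3 at 0.25 and Plk2 at -0.30 passed limma's test, and each deposited mean lies to the left of its quantile-normalized one.

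The third receptor of the family did not follow. Nr4a2 (17772385), which encodes Nurr1, known for dopamine neurons and also induced in the hippocampus, read 10.25, 9.93 and 10.35 with Ncoa3 shRNA, against 10.16, 10.16 and 10.45 with control shRNA. The groups overlapped, and its change of 0.15 ± 0.164 (SE) did not pass (limma's adjusted p = 0.571). By experiment it stood at 0.32, 0.04 and 0.09, so that experiment 1 made up most of its mean.

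The Egr genes, Arc and Npas4 did not pass without the experiment in the model. Their changes were 0.20 ± 0.180 for Egr1, 0.21 ± 0.256 for Egr2, 0.07 ± 0.156 for Egr4, 0.14 ± 0.271 for Arc and 0.26 ± 0.0951 for Npas4 (SE; adjusted p from 0.109 for Npas4 to 0.790 for Egr4). Egr3 stood apart in sign at -0.21 ± 0.244 (adjusted p = 0.594), and its deposited value was lower with Ncoa3 shRNA in each experiment, at -0.62, -0.33 and -0.45. For Egr1, Egr2, Egr3 and Arc the range over experiments with Ncoa3 shRNA, 0.61, 0.82, 0.68 and 0.88, and with control shRNA, 0.44, 0.54, 0.51 and 0.52, was larger than the mean difference between the groups.

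Since the labels tie the arrays of a number to 1 experiment, the comparison was also made with the experiment as a block. Egr1 (limma's adjusted p = 0.0431) and Npas4 (0.0154) then passed beside Nr4a1 (0.00555) and Nr4a3 (0.0163), so that 4 of 10 were higher, where 20.8% of all genes were. Plk2 (0.0258) remained the 1 gene that passed as lower, where 18.6% of all genes did. Egr2 (0.0925), Egr3 (0.101), Nr4a2 (0.171), Arc (0.273) and Egr4 (0.334) did not pass. With the block on the deposited values, Nr4a1 passed as higher (adjusted p = 0.00616), 1 of 10 where 4.33% of all genes did. Egr3 (0.0261) and Plk2 (0.0151) passed there as lower, 2 of 10 where 55.9% of all genes did. Nr4a1 and Plk2 were thus the genes that passed in both scalings with the block, in opposite directions. The median change of the 10 genes was 0.18 after quantile normalization, beside 0.01 over all genes, and -0.07 in the deposited values, beside -0.25.

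Markers of other cells were also set against the hairpins. Of the 4 astrocyte markers 0 passed limma's test between the groups (0 also at an unadjusted p under 0.05), with a median change of 0.08. Of 4 microglia markers 2 passed as higher, Cx3cr1 and Aif1, with a list mean of 5.90 to 6.39 with Ncoa3 shRNA, against 5.85 to 6.12 with control shRNA, and Aif1 and Itgam were at the level of smell receptor genes in both groups. Cx3cr1 read 6.30, 6.30 and 7.07 with Ncoa3 shRNA, against 5.64, 5.76 and 6.18 with control shRNA, where only the 7.07 lay above that level, so no size is given for its difference. Of 4 fibroblast markers 1 passed as higher, Dcn at 0.52, with a list mean of 8.36 to 8.80 with Ncoa3 shRNA, against 8.40 to 8.77 with control shRNA. Of 3 GABAergic markers Slc32a1 was higher at 0.50 (adjusted p = 0.0122) and Gad2 lower at -0.42 (0.0349), both larger in size than the change of Plk2. Of 5 oligodendrocyte lineage markers Pdgfra was higher at 0.32 (limma's adjusted p = 0.0252) and Mog lower at -0.26 (0.0228). Pdgfra had a single deposited value within each group, 6.38 with Ncoa3 shRNA and 6.34 with control shRNA. These lay at about the level of smell receptor genes or below it, with a deposited difference of 0.04. Mog also had values shared between arrays of a group. Top2a, at the level of smell receptor genes, also passed as higher, and of the neuron, excitatory neuron and endothelium markers none passed limma's test (at an unadjusted p under 0.05, 2 of the 6 neuron markers and 0 of the others). The part of these cells in the changes of Nr4a1, Nr4a3 and Plk2 was not tested.

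Among other induced genes, those that passed were all higher, as Nr4a1 was. Of 17 other immediate-early transcription factors 6 rose and 0 fell after quantile normalization, 0 fell at an unadjusted p under 0.05 as well, and 10.5% of all genes rose: Crem, a factor that binds CREs, by 0.53, Jund, an AP-1 subunit, by 0.49, Per1, a clock gene, by 0.48, Fos, the founding AP-1 gene, by 0.47, Csrnp1 by 0.27 and Maff by 0.25 (limma's adjusted p from 0.00466 for Per1 to 0.0317 for Maff). Of 23 early induced genes of signalling and secretion 6 rose and 0 fell (0 also at an unadjusted p under 0.05): the phosphatase gene Dusp1 by 0.49, the pseudokinase gene Trib1 by 0.43, Zfp36, which speeds mRNA decay, by 0.42, the kinase genes Sgk1 and Sik1 by 0.33 and 0.32, and Gem by 0.30 (adjusted p from 0.00829 for Trib1 to 0.0303 for Gem). Per1, Csrnp1 and Zfp36 each had a single deposited value within each group. Trib1 had a single value with Ncoa3 shRNA and Gem with control shRNA, and the deposited difference of Gem was 0.01. The median changes of these lists were 0.19 and 0.12. In the deposited values 2 members of the first list were higher and 3 lower, and 4 and 3 of the second. Of all genes 3.97% were higher there and 43.3% lower. That no called gene fell thus holds relative to the common distribution and not in the deposited values. With the experiment as a block 10 and 11 rose and 0 fell, where 20.8% of all genes rose and 18.6% fell.

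**Figure D4:**
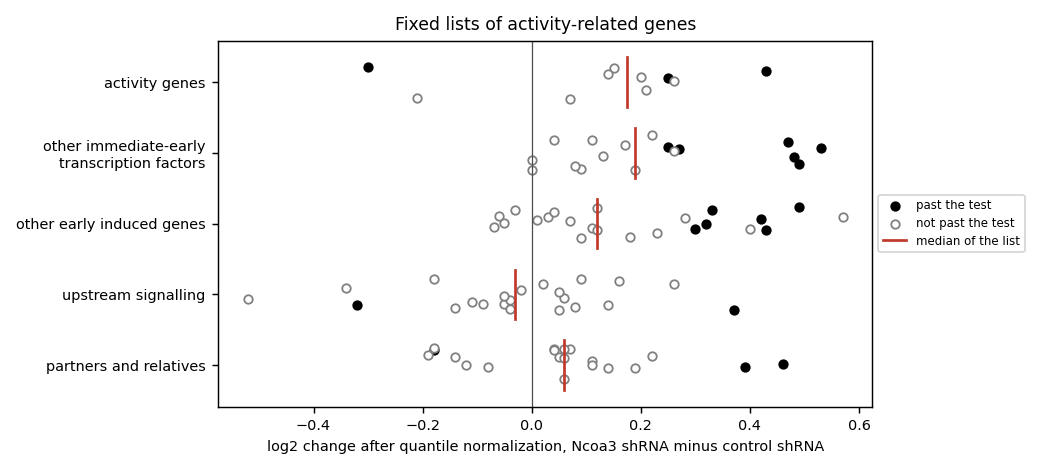
Change of each gene after quantile normalization (Ncoa3 shRNA minus control shRNA, log2) in the activity genes and the 4 fixed lists, filled where limma's test was passed, with a red line at the list's median. The medians of the 3 lists of induced genes are 0.18, 0.19 and 0.12, and those of upstream signalling and of partners are -0.03 and 0.06.

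Genes that act before and beside the activity genes were counted the same way, beside 10.5% of all genes higher and 9.04% lower. Of 22 measured genes of upstream signalling and transcription factors 1 rose and 1 fell: Mef2d, a calcium-regulated factor, by 0.37 (limma's adjusted p = 0.0157), while Camk4, a nuclear calcium-dependent kinase that activates CREB, fell by 0.32 (0.023), with a single deposited value within each group. Of 20 partners, relatives and substrates 2 rose and 1 fell. Nab1, a corepressor of EGR proteins, rose by 0.39 (0.0315), and Plk3, a relative of Plk2, rose by 0.46 (0.0458). Rapgef2, an exchange factor for Rap proteins that Plk2 is known to phosphorylate, fell by 0.18 (0.0472). In the deposited values 1 and 0 genes of these lists were higher and 5 and 7 lower, where 3.97% of all genes were higher and 43.3% lower. Plk2 and Plk3, both inducible Polo-like kinases, thus stood on opposite sides after quantile normalization. The deposited difference of Plk3 was 0.23 and did not pass (limma's adjusted p = 0.324). Its deposited groups overlapped, and in experiment 3 they differed by 0.02.

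The genes most like a member were found by the root mean square difference of quantile-normalized signal over the 6 arrays, each gene centred on its own mean, among genes brighter than the median gene. For Plk2 they were Pcyt1b (0.0421), Ppp3ca, which encodes a catalytic subunit of calcineurin (0.0518), and Prrg3 (0.0533). For Nr4a1 they were Igsf8 (0.0276), Myadm (0.0361) and Ccnb2 (0.0457), and for Nr4a3 B4galt6 (0.0317), Wbp1l (0.0334) and Rab5b (0.0348). With 6 arrays in 2 groups many genes lie this close. Chosen after the values were seen, Arc and Egr2 were each the other's nearest gene of all those compared, at 0.0448. No activity gene was near Plk2, whose closest, Egr4, lay at 0.22.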

How the data were processed

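RNA of 6 cultures was measured on Affymetrix arrays. The authors deposited log2 signals, 1 for each probe set on each array. The submitters' processing notes name Affymetrix Expression Console; no source used here gives its version, the way probes were summarised and normalized, or a genome build. RNA came from the mirVana kit, per the labels' protocols. No counts exist, and the number of arrays limits the precision.

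Probe sets were named through GEO's platform annotation, which can be old: 18511 of 36685 had 1 symbol, 575 several, and the rest none here; 18394 symbols were found in RefSeq by gene ID and 0 changed. The brightest probe set was kept per gene, giving 18166 genes. limma 3.58.1 in R 4.3.3 (lmFit, eBayes with a trend, Benjamini-Hochberg over all genes, two-sided, threshold 0.05) tested the groups and, by a moderated F test, the experiments. The check of pairing used deviations from group means after quantile normalization. Same-numbered arrays had correlations of 0.72, 0.55 and 0.78 over genes, against -0.73 to 0.50 for arrays of different numbers. Genes with a single deposited value within each group were kept in it, though their deviations come from the normalization alone. The labels call the number an experiment. The fits were tested on simulated data. Alternatives were deposited values, median centring, the block, bright genes alone, no trend, all probe sets, and arrays or experiments left out. Genes named were all members, list members past the test (at most 6 a list by adjusted p) and the 3 nearest genes of members past the test. Members and lists were chosen with earlier results of these data known. Promoter sequences are RefSeq's (GRCr8), found for 7 of the 10 genes.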

Additional observations from a re-analysis of the deposited data

How the results depend on the processing

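With the deposited values 0 activity genes were higher and 8579 of all genes passed between the hairpins, and between experiments 0 activity genes and 347 of all genes passed. Median centring gave 0 higher and 0 lower activity genes, 1868 of all genes between the hairpins and 10074 between experiments. The replicate block (experiment) gave 4 higher and 7147 of all genes, and together with the deposited values, chosen after the data were seen, 1 higher, 2 lower and 10932. Among genes brighter than the median 0 were higher, 0 were lower and 433 of all genes passed between the hairpins, while 6 activity genes and 2073 of all genes passed between experiments. Without the trend 1 activity gene and 1473 of all genes passed between experiments. Leaving out an array or an experiment, always without the block, gave 0 to 2 higher and 0 to 1 lower activity genes, and 0 to 8354 of all genes. The 0 of all genes, from limma without experiment 2, stood beside 3071 genes at an unadjusted p under 0.05. Leaving out an array, also added after the data were seen for this test, gave 0 activity genes and 0 to 1368 of all genes between experiments (4355 to 7380 at an unadjusted p under 0.05). The change of Ncoa3 ranged from -1.15 to -0.86 with arrays or experiments left out and was -1.26 in the deposited values.

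Among the 10 activity genes, signs turned only for those that had not passed after quantile normalization. Of the other genes named as risen, Csrnp1 and Maff had deposited differences of -0.01 and -0.03. In the deposited values, with or without the block, Egr2 stood at -0.06, Egr4 at -0.20, Nr4a2 at -0.08 and Arc at -0.13. With arrays or experiments left out, Egr3 ranged from -0.38 to 0.0077, Egr4 from -0.02 to 0.22 and Arc from -0.07 to 0.40. The values that turned were 0.0077 for Egr3 without Ncoa3 shRNA replicate 1, -0.02, -0.0014 and -0.0036 for Egr4 without control shRNA replicate 1, Ncoa3 shRNA replicate 2 or Ncoa3 shRNA replicate 3, and -0.0057 and -0.07 for Arc without control shRNA replicate 1 or Ncoa3 shRNA replicate 3. Nr4a1, Nr4a3, Npas4, Egr1 and Plk2 kept their sign in every alternative run. The cause was not tested.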
